A study of Caenorhabditis elegans with 2 samples.

Results

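Genes encoding 6 DnaJ proteins of Caenorhabditis elegans, dnj-7, dnj-10, dnj-12, dnj-13, dnj-19 and dnj-27, were examined for binding of the tagged protein Y67H2A.10 at their promoters. They are 6 of the 29 protein-coding dnj genes and of the 19973 protein-coding genes in the Ensembl annotation of the assembly WBcel235, release 115. The 6 were picked with peak values of these data known, to put dnj genes with a bound promoter beside relatives without one. The assay was ChIP-seq, in which DNA bound by a protein is precipitated with it and sequenced, on whole young adults at 63 hours that had grown from L1 larvae starved after bleaching. In the strain, RW12295, the allele st12295 on chromosome IV joins Y67H2A.10 at its own locus to the tags TY1, EGFP and 3xFLAG by CRISPR insertion, and an antibody to GFP brought down the fusion. The 2 biological replicates formed the only group, so no treatment or genotype was compared, and worms without the tag were not analysed here. Whole worms were used, so a signal in a few cells cannot be told apart from a weaker one in many.

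DnaJ proteins, also called J proteins or Hsp40s, carry a J domain that stimulates the ATPase of Hsp70 chaperones. They bring unfolded clients to Hsp70 and thereby direct it to folding, refolding, transport or disaggregation. DNJ-12 and DNJ-19 are cytosolic J proteins of class A, related to yeast Ydj1, and DNJ-13 is a cytosolic J protein of class B. In the worm, DNJ-12 and DNJ-13 act with HSP-1 and HSP-110 to dissolve protein aggregates. DNJ-10 is a mitochondrial J protein, and DNJ-7 and DNJ-27 are J proteins of the endoplasmic reticulum (ER), related to mammalian P58IPK and ERdj5.

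The data were peak lists without read counts, so depth is unknown. A ranked list held every candidate peak. A kept list held peaks past an irreproducible discovery rate (IDR) of 0.01, the expected share of peaks of at least that rank that do not recur. The conservative comparison set replicate 1 against replicate 2 and kept 709 of 22544 candidates, which merged to 666 regions. Of the candidates 21801 had an IDR above 0.01, so some past the threshold were not kept. The highest signal was 1788 among the candidates and 944 among the kept peaks. Why strong candidates are missing from the kept list was not examined. The lists of the single replicates were not copies of each other, with 24546 candidates and 324 kept regions in replicate 1 and 31534 candidates and 413 kept regions in replicate 2. Signal is the deposited value of a peak in units of the peak caller, and no source used here explains what it measures. Signals are therefore read within 1 list, and between the replicates with percentiles beside them. A gene counted as bound when a summit lay between 500 bp upstream and 100 bp downstream of the 5′ end of any of its transcripts. The IDR and the scores are the authors' values throughout.

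The promoters of dnj-13, dnj-19 and dnj-12 carried a kept region and those of dnj-7, dnj-10 and dnj-27 did not. That is 3 of 6 members, where 2.31% of all protein-coding genes (462 of 19973) carried one. The same 3 genes carried a kept region in the pooled list (2.3% of all genes), in replicate 1 alone (1.22%) and in replicate 2 alone (1.51%). Their conservative and pooled records had the same coordinates and signals, so the pooled list is not a separate check. Because the members were picked from these lists, the share is a description and no test was made. The working name of the set, DnaJ genes with marked promoters and relatives, fits its marked genes by that choice. It did not take in all marked dnj genes, since dnj-28, dnj-9 and dnj-29 carried kept regions as well.

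The region of dnj-13 was the strongest of the family, and the sequences at the summits of dnj-13 and dnj-19 are shown because the 8-base word discussed further on was found in the former and a CG-rich element in the latter. The gene dnj-13 (WBGene00001031, II:11545701-11547360, plus strand) has 3 exons and a coding length of 993 bp. The summit of its kept region was 237 bp upstream, in II:11545427-11545544. The gene dnj-19 (WBGene00001037, V:5503033-5504857, minus strand) has 4 exons and a coding length of 1317 bp. There the summit was 379 bp upstream, in the kept region V:5505088-5505383. The sequences come from the RefSeq genome of WBcel235 and run 5′ to 3′ along each gene, from II:11545364-11545564 on the plus strand and V:5505136-5505252 on the minus strand. The stretch of dnj-19 begins at the edge of the first exon of its neighbour nhr-47, whose 5′ UTR is not printed. Capitals mark GTGCGCTC in the first sequence and ACGCGC on either strand in the second, where 2 of its 3 matches overlap at the end.
dnj-13: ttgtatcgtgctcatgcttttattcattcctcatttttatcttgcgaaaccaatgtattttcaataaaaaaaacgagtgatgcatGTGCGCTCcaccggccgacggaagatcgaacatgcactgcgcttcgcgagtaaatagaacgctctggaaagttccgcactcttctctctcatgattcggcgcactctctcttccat
dnj-19: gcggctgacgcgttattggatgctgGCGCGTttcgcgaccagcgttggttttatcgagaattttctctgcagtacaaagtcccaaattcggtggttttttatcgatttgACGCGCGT

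At dnj-13 the signal was 152 in replicate 1 and 134 in replicate 2. These values stood at percentiles 99.9 and 99.8 of the ranked lists of the replicates. The IDR was 1e-05 in each replicate and in both comparisons, so it may be the lowest value the lists give. The summits of the replicates were 23 bp apart. In the conservative comparison the region had a signal of 295 and an IDR of 1e-05, and it ranked 32 of 666 regions. It was 118 bp wide, whereas the other 5 kept regions of dnj genes were 296 bp wide. The summit fell in an exon of the non-coding RNA gene F54D5.22 and in an intron of dhgd-1 on the opposite strand. An annotated 5′ end of F54D5.22 was at the summit itself, at a distance of 0 bp. The nearest 5′ end of another protein-coding gene, F54D5.9, was 636 bp from the summit. A separate record towards F54D5.9, at -829 bp from the 5′ end of dnj-13, had a signal of 84.8 and an IDR of 0.0267 in the conservative comparison, outside the threshold, and of 0.00994 in the pooled one, inside it.

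At dnj-19 the signal was 60.1 in replicate 1 and 66.5 in replicate 2, at percentiles 98.7 and 99.3 of the lists. The IDR was 0.00477 and 3.81e-04, and the summits were 16 bp apart. Replicate 2 was thus slightly the higher for this gene, both in signal and in percentile. In the conservative comparison its signal was 125.9, its IDR was 1.29e-04 and its rank was 215 of 666. The region is shared. The summit lay 17 bp from the 5′ end of nhr-47, a nuclear hormone receptor gene transcribed in the opposite direction, and 379 bp from that of dnj-19, so that both genes were counted as bound by 1 record. The summit also lay in an exon of the non-coding RNA gene C24G6.10, 25 bp from the 5′ end of that gene. A weaker record at 235 bp downstream of the 5′ end of dnj-19 had a signal of 59.4 and an IDR of 0.140.

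At dnj-12 (WBGene00001030, I:14756904-14758790, plus strand, 4 exons, coding length 1206 bp) the signal was 67.8 in replicate 1 and 62.4 in replicate 2. Both replicates were near percentile 99, at 99.1 and 99.2, with an IDR of 0.00107 and 8.61e-04. The summits were 36 bp apart. In the conservative comparison the signal was 125.5 and the IDR 9.45e-05, and the rank was 216 of 666, next to that of dnj-19. The kept region I:14756711-14757006 had its summit 45 bp upstream of the outer 5′ end of dnj-12 and 204 bp upstream of an inner one. It was the nearest to its gene among the kept regions of the members. The divergent gene mtx-1, for a metaxin of the mitochondrial outer membrane, has its 5′ end 447 bp from the same summit and was counted as bound too. Separate records at -549 bp and 1824 bp from the nearest 5′ end of dnj-12 had signals of 59.8 and 66.0. Their IDR of 0.193 and 0.253 left them outside the threshold. The record at -549 bp lay on the side of mtx-1, inside the promoter window of that gene.

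**Figure D1:**
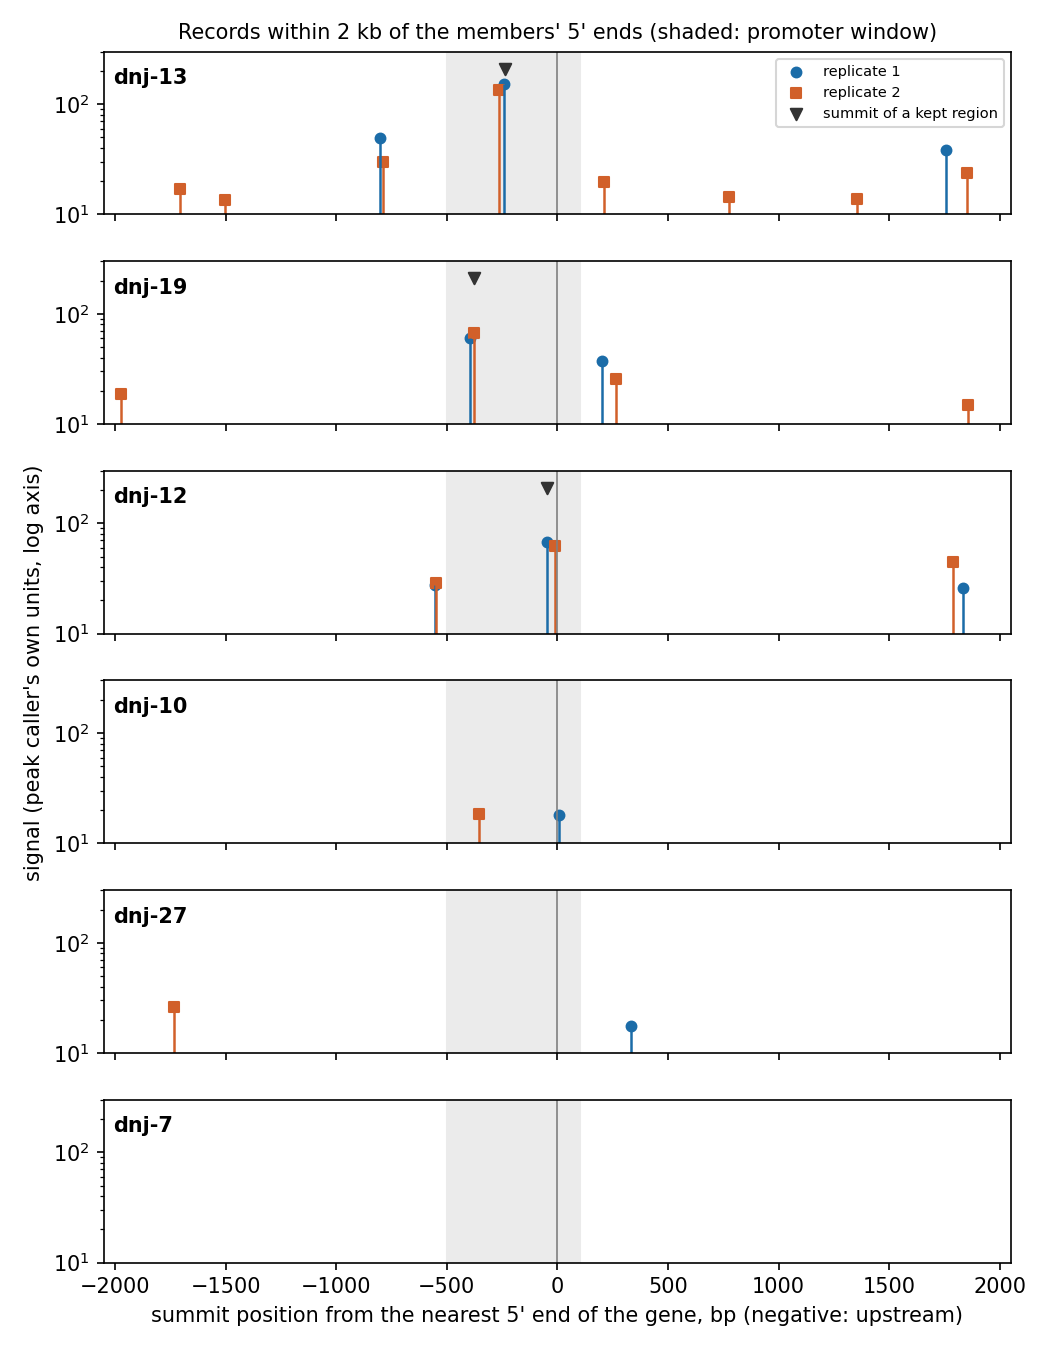
Records of the ranked lists within 2 kb of the nearest 5′ end of each member, with the summit position in bp on the x axis (negative values are upstream) and the signal in the peak caller's units on a log y axis. Stems stand for replicate 1 (circles) and replicate 2 (squares), triangles for summits of kept regions of the conservative comparison and shading for the promoter window. The strongest stems of dnj-13, dnj-19 and dnj-12 lie inside the window in both replicates, dnj-10 has 1 weak stem per replicate at different places, and dnj-7 has none.

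The order of the dnj promoters by signal was stable at the top and not further down. In the conservative comparison dnj-13 at 295 was followed by dnj-28 at 154, then dnj-19 at 125.9 and dnj-12 at 125.5, and last dnj-9 at 94.1 and dnj-29 at 90.7. In both replicates dnj-13 was first and dnj-28 second, with 92.8 and 77.1 for dnj-28. The genes dnj-12 and dnj-19 changed places between the replicates. So did dnj-9, with 59.0 in replicate 1 and 38.1 in replicate 2, and dnj-29, with 52.7 and 48.5. The order within these pairs therefore did not recur between the replicates. On the log2 scale, replicate 1 minus replicate 2 was 0.18 for dnj-13, 0.12 for dnj-12 and -0.14 for dnj-19. For the other kept dnj genes it was 0.266 for dnj-28, 0.12 for dnj-29 and 0.63 for dnj-9. Over the 453 genes with a kept region and a record in each replicate the quartiles of this difference were -0.304 and 0.273. The 3 members, dnj-28 and dnj-29 thus lay inside them and dnj-9 outside.

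**Figure D2:**
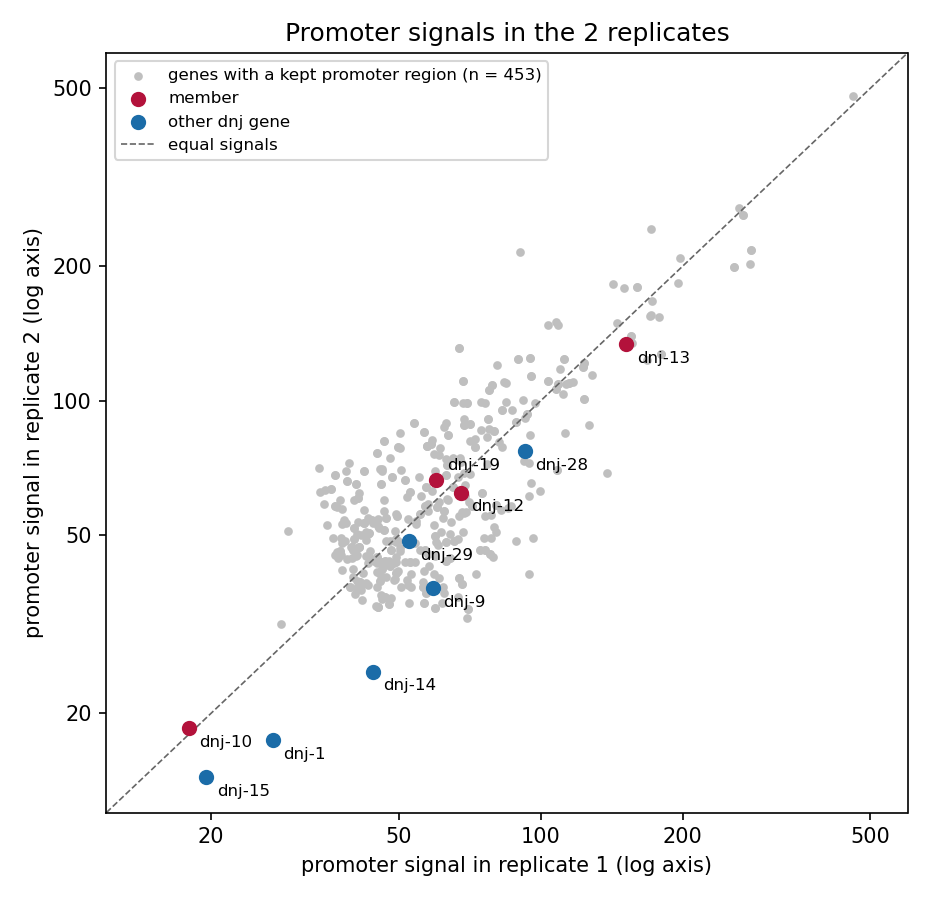
Promoter signal in replicate 1 (x axis) and replicate 2 (y axis), both in the peak caller's units on log axes, with 1 point for each gene that has a record in both. Grey points are the 453 genes with a kept region, red points are members, blue points are other dnj genes and the dashed line marks equal signals. The members dnj-12, dnj-13 and dnj-19 lie close to the line, at 60.1 to 152 in replicate 1, while dnj-10 lies below the kept genes at 17.9 and 18.6.

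By signal in the 2 replicates, the bound genes most like each member were the following, with likeness given as the Euclidean distance of the log2 signals over those 2 samples. For dnj-13 they were atad-3, with 154 and 137 at a distance of 0.0358, and wwp-1, with 156 and 135 at 0.0382. For dnj-12 the first was mtx-1 at a distance of 0, because the record is the same, and the next was pinn-1 at 0.0378. For dnj-19 the first was nhr-47, again the same record, and the next was fbxl-2 at 0.0687. The nearest bound genes to dnj-10 were ari-1.4 at 1.01 and gtsf-1 at 1.54. Only genes with a kept region were searched, and dnj-10 was picked without one, so these larger distances follow from the choice of genes.

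The other members carried at most weak records. For dnj-10 (WBGene00001028, III:8631165-8633565, plus strand, 9 exons, coding length 1368 bp) replicate 1 held a record of signal 17.9 at 9 bp downstream of the 5′ end, and replicate 2 held one of 18.6 at -356 bp. These summits were 365 bp apart, the values stood at percentiles 11.4 and 41.2, and the IDR was 0.882 and 0.957. The replicates thus gave similar signals but unlike percentiles, at different places, and the conservative comparison held no record within the promoter window. The pooled ranked list had records of 32.1 at -401 bp and 24.0 at 15 bp downstream, with an IDR of 0.882. Weak records near other dnj genes had the same IDR, 0.957 in replicate 2 and 0.882 in the pooled list, so these values are ties. For dnj-7 (WBGene00001025, X:7194564-7198291, plus strand, 10 exons, coding length 1473 bp) no list held a record within 2 kb of the 5′ end, and the nearest candidate of the conservative comparison was 12621 bp away. The 200 bases before the annotated 5′ end of dnj-10 are shown for comparison with the bound promoters, from III:8630965-8631164 on the plus strand in RefSeq WBcel235. Capitals mark the last 6 bases, TTTCAG, which resemble a splice acceptor.
dnj-10: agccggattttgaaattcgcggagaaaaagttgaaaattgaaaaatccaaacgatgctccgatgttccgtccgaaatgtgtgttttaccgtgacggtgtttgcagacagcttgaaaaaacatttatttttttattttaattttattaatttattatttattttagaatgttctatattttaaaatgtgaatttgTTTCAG

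Many worm messages receive a spliced leader in trans, and the annotated 5′ end of such a gene is the splice site rather than the start of transcription. The bases TTTCAG stood directly before the 5′ ends of dnj-10 and dnj-13 and before the inner 5′ end of dnj-12. They stood before 11.5% of the distinct 5′ ends of all protein-coding genes (3425 of 29784). They did not stand before the 5′ end of dnj-19, the outer 5′ end of dnj-12 or either 5′ end of dnj-27. A promoter may therefore lie farther upstream than the window counts it, and whether this holds for dnj-10 was not tested. The nearest kept region was 111891 bp from the 5′ end of dnj-7 and 164540 bp from that of dnj-10.

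The ER gene dnj-27 (WBGene00001045, I:11877803-11887278, plus strand, 7 exons, coding length 2364 bp) has 2 annotated 5′ ends, and neither had a record in its window. Replicate 1 held a record of 17.7 at 333 bp downstream of the inner 5′ end, at percentile 8.98. Replicate 2 held one of 26.0 at -1732 bp from the outer 5′ end, at percentile 82.0. The records lay at different 5′ ends, and none recurred between the replicates. The nearest candidate of the conservative comparison was 2991 bp from a 5′ end of dnj-27 and the nearest kept region was 44958 bp away.

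Any candidate record, kept or not, was found in the promoter window of dnj-12, dnj-13 and dnj-19 in the conservative ranked list, which is 3 of 6 members where 19.8% of all genes had one. The pooled ranked list added dnj-10 and so gave 4 members, against 21% of all genes. The ranked lists of replicate 1 and of replicate 2 also gave 4 members each, against 22.8% and 27.8% of all genes. Over the whole family the counts were 9 of 29 genes in the conservative ranked list, 10 in the pooled one, 12 in replicate 1 and 14 in replicate 2. No ranked list held a promoter record for 13 of the 29 genes, among them dnj-7 and dnj-27.

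In the conservative comparison, where 2.31% of all protein-coding genes carried a kept region, 6 of the 29 dnj genes (20.7%) did. Besides the 3 members these were dnj-28, dnj-9 and dnj-29, the last of which encodes a protein related to Sec63 of the ER translocon. At dnj-29 the summit lay 386 bp upstream of the gene and 142 bp from the 5′ end of ndua-2, which encodes a subunit of respiratory complex I and was counted as bound as well. The summit of dnj-28 lay 121 bp upstream of the gene and 453 bp from the 5′ end of supr-1, which was counted as bound by the same record. That of dnj-9 lay 236 bp upstream, with no other coding 5′ end within 1000 bp. Replicate 2 alone kept neither dnj-9, with an IDR of 0.0703, nor dnj-29, with an IDR of 0.470. The family count there was thus 4 of 29, where 1.51% of all protein-coding genes were kept.

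By IDR, the threshold of 0.01 fell between dnj-9 and dnj-14. Just inside it in the conservative comparison was dnj-9, with a signal of 94.1 and an IDR of 0.00269. Farther inside was dnj-29, with a lower signal of 90.7 and an IDR of 7.49e-04. Just outside it was dnj-14, which encodes a protein related to the cysteine string protein of synaptic vesicles, with a signal of 69.5 and an IDR of 0.164. Its signal was 44.1 in replicate 1 and 24.8 in replicate 2. Farther outside were dnj-15 with 41.3 and an IDR of 0.733 and dnj-1 with 20.7 and an IDR of 0.695. The ER gene dnj-20, related to mammalian ERdj3, had no record in the window in replicate 1 or in the conservative comparison. Its record in replicate 2 had a signal of 42.1, at percentile 97.5, and an IDR of 0.297. In the pooled ranked list its record had a signal of 58.2, at percentile 91.3, and an IDR of 0.775.

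**Figure D3:**
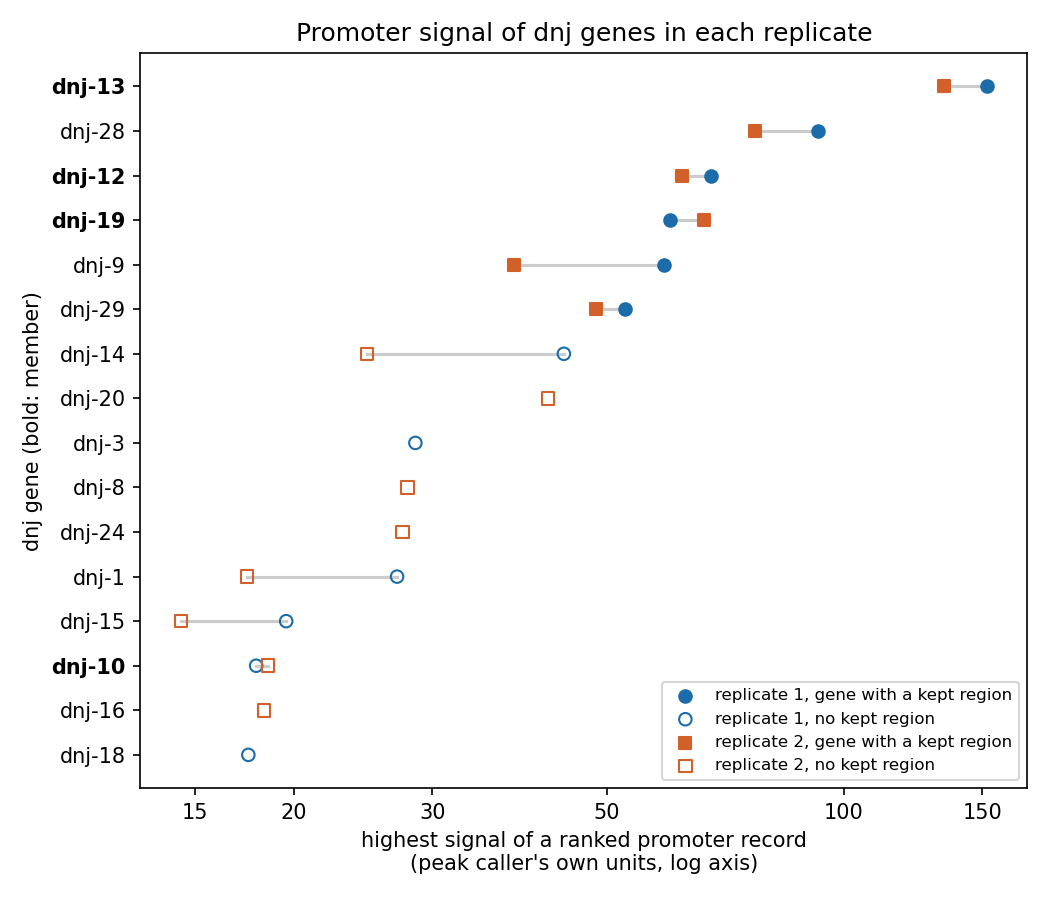
Highest signal of a ranked promoter record for each of the 16 dnj genes that have one in a replicate, on a log x axis in the peak caller's units, with members in bold. Circles are replicate 1, squares are replicate 2, filled symbols are genes with a kept region in the conservative comparison and a grey line joins the replicates. The genes with a kept region stand at 38.1 or more in both replicates, and dnj-10 stands at 17.9 and 18.6.

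Partners of DnaJ proteins and other folding genes were counted with the same window, in gene lists drawn up from textbook roles. Against a share of 2.31% of all protein-coding genes, 5 of 12 Hsp70 and Hsp110 genes (41.7%) carried a kept region. They were hsp-1, the main cytosolic Hsp70, with 178 in replicate 1 and 154 in replicate 2, hsp-110, a nucleotide exchange factor, with 109 and 70.1, and hsp-3, an ER Hsp70, with 129 and 114. The other pair, F44E5.4 and F44E5.5, shared 1 region with signals of 280 and 218. The signal of hsp-1 in each replicate was thus above that of dnj-13, and that of hsp-110 lay between dnj-13 and dnj-12. Of 12 cofactors of Hsp70 and Hsp90, 4 (33.3%) carried one. These were hsp-90 with 123 and 119, bag-1 with 97.3 and 99.1, ahsa-1, the activator of the Hsp90 ATPase, with 75.3 and 62.2, and unc-23, another BAG domain cofactor, with 61.9 and 35.4.

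Organelle lists gave smaller counts, read beside the same share of 2.31% of all protein-coding genes. Of 14 genes for ER folding, 3 (21.4%) carried a kept region. Besides hsp-3 these were enpl-1, the ER relative of Hsp90, with 49.5 in replicate 1 and 41.3 in replicate 2, and pdi-6, a disulfide isomerase, with 47.0 and 40.4. Of 13 genes for mitochondrial folding, 2 (15.4%) carried one, namely Y22D7AL.10, an Hsp10-type cochaperonin, with 109 and 148, and C34C12.8, a GrpE-type exchange factor, with 45.1 and 43.3. The median kept signal in the conservative comparison was taken over genes, so a region shared by 2 genes, such as F44E5.4 and F44E5.5, counted for each. It was 126 for the dnj family, 337 for the Hsp70 and Hsp110 genes and 166 for the cofactors. For ER folding it was 100.3, for mitochondrial folding 170 and for all genes 113. Counts of any candidate record differed more between the family and the other lists. One was found for 31.0% of dnj genes and 70.8% of the 48 genes of the other lists, against 19.8% of all protein-coding genes. None of these differences was tested, since the lists were chosen with results known.

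**Figure D4:**
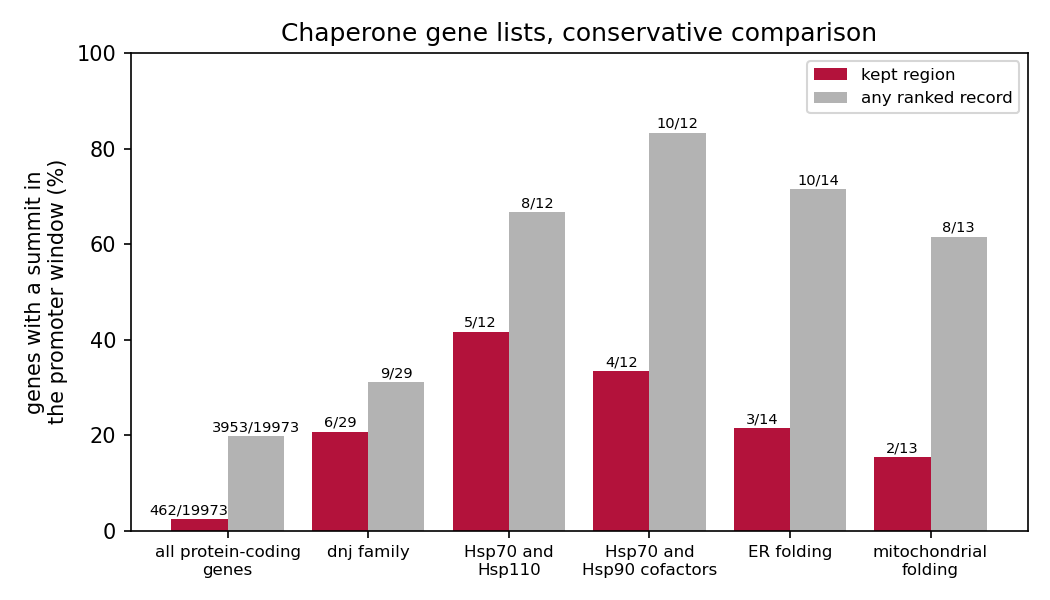
Percentage of the genes of each list with a summit in the promoter window in the conservative comparison, on a y axis from 0 to 100%, with the counts above the bars. Red bars are kept regions and grey bars are any ranked record. The dnj family stands at 20.7% and 31.0%, and all protein-coding genes at 2.31% and 19.8%.

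The stretches of 301 bp centred on the summits of dnj-12, dnj-13 and dnj-19 had 1 longest word in common, GTGCGCTC, of 8 bases, on the strand of each gene. The word was sought after the summits were known. It was centred at -22.5 bp from the summit of dnj-12, -11.5 bp from that of dnj-13 and -43.5 bp from that of dnj-19, so within 50 bp in all 3, and in dnj-19 it lay in the annotated 5′ UTR of nhr-47. On either strand, the word was present in 3.75% of the 666 kept regions (25), which include the 3 it was taken from. It was present in 0.550% of the 21801 ranked records outside the threshold (120). Among the 601 bp promoter windows of all protein-coding genes it was in 1.11% (222). Of those 222 genes 26 (11.7%) carried a kept region, which includes the 3 members from which the word was taken, and of the 19751 genes without the word 436 (2.21%) did. The word was taken from these 3 of the 6 kept dnj genes, so its presence in them is no finding, and dnj-9, dnj-28 and dnj-29 lacked it. It was in none of the 13 kept genes of the other chaperone lists and in 1 of the 23 dnj genes without a kept region, dnj-20. The genome holds it at 1063 places, and 25 of them (2.35%) were within 150 bp of a kept summit, so most places with the word had no kept region.

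Single pairs of kept dnj genes shared longer runs, within the members and across their border. Of the 6 genes, dnj-19 and dnj-28 shared the longest run, of 14 bases, dnj-12 and dnj-13 shared 13 bases, and dnj-9 and dnj-29 shared 12. The run of dnj-12 and dnj-13 contains the word. Among all pairs of kept stretches, 2.94% (6512 of 221444) shared a run of at least 13 bases. The run of dnj-12 and dnj-13 is present at 45 places in the genome, of which 4 lay within 150 bp of a kept summit. The coding 5′ ends nearest to these 4 belong to dnj-12, dnj-13, W09B6.4 and Y17G9B.5. Another copy lay at -142 bp from a 5′ end of dnj-20, whose promoter had no kept region.

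Named elements divided the members differently. ACGCGC, on either strand, was present in 26.4% of kept stretches, 6.66% of ranked records outside the threshold and 10.2% of promoter windows. Within 150 bp of the summit dnj-19 had 3 matches, and dnj-12 and dnj-13 had 0. Heat shock elements are built of inverted repeats of GAA, so GAANNTTC and TTCNNGAA, each its own reverse complement, were counted. GAANNTTC lay within 150 bp of the summit in dnj-12, dnj-13 and dnj-19, with a share of 20.4% in kept stretches and 20.2% in records outside the threshold. TTCNNGAA lay there in dnj-12 alone, with shares of 18.2% and 18.8%. The promoter window of dnj-27 held neither, and that of dnj-10 held 1 of each. Among the promoter windows of all protein-coding genes, 34.3% held GAANNTTC and 34.6% held TTCNNGAA. The kept genes dnj-9, dnj-28 and dnj-29 had neither within 150 bp of their summits. Of these, dnj-9 alone had ACGCGC there, with 1 match. A match is a string of letters and no measure of a factor's binding.

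Base composition at the summits lay within the quartiles of the kept regions for dnj-12 and dnj-13 and above them for dnj-19. The 101 bp around the summit had a GC content of 44.6% in dnj-12, 47.5% in dnj-13 and 56.4% in dnj-19, where the kept regions had a median of 49.5% and quartiles of 44.6% and 54.5%. Over the whole promoter window the bound members had 34.3%, 37.3% and 38.9%, and dnj-10 and dnj-27 had 31.1% and 35.1%. All protein-coding genes had a median of 34.6%. The promoter windows of bound members and of dnj-10 and dnj-27 thus overlapped in composition. None of the 3 summits lay in sequence masked as a repeat.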

How the data were processed

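Peaks were called by the authors against a control, on each replicate and on pooled reads, per the deposited text records; chromatin was sonicated to 200 to 800 bp, per the labels. Neither aligner nor peak caller, with its version, is given in the sources used here. The build is ce11, which is WBcel235, per the labels. The deposited score is the authors' rescaled IDR, at most 1000. Peak signals are the signal column as deposited. The ranked lists also hold the authors' −log10 of the IDR, from which the IDR was computed. In the conservative and pooled ranked lists, 16 columns of the compared pair were not used. Read counts are not in peak lists, so the depth per replicate is unknown and no counting interval is given.

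Overlapping records were merged, keeping the strongest summit. The tables were made with Python 3.11.15, pandas 2.3.3 and numpy 2.4.6, and the window search was checked on simulated data. The members, gene lists and named elements were chosen with earlier results of these data known. Named genes were the members, dnj genes with a conservative promoter record, the 3 with the highest conservative signal and no kept region, and genes with a kept region in 4 chaperone lists. The nearest other 5′ end within 1000 bp of a summit and the 2 bound genes nearest in log2 signal were named too. F54D5.22, C24G6.10, dhgd-1, W09B6.4, Y17G9B.5 and dnj-20 were named after their values were seen. Protein sequences were not used here, so a planned description of J domain motifs was not run. Alternatives were stricter and looser IDR thresholds, single replicates, the pooled list and other windows and gene assignments. The promoter sequence of 1 member is not reported here.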

Additional observations from a re-analysis of the deposited data

How the results depend on the processing

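The count of 3 bound members held at an IDR of 0.001 and of 0.05, in the pooled list, without either replicate, with a window of 1000 bp upstream, any overlap, unmerged records or the 5′ end of the gene only, and, added after seeing the data, without soft-masked summits. With a window of 200 bp upstream it was 1 (dnj-12), the family count was 2 (dnj-12 and dnj-28) and the count of all genes was 227, since the summits of dnj-13 and dnj-19 lie farther upstream. Giving each region to the nearest 5′ end at any distance moved the region of dnj-19 to nhr-47 and left 2 members, while the count of all genes rose from 462 to 621 (3.11%). The family count ran from 4 to 6 in every other setting, and without replicate 1 it was 4. Over all genes the count was 272 at an IDR of 0.001, 617 at 0.05, 601 with the window of 1000 bp, and 243 to 302 with 1 replicate left out. The record of dnj-19 nearest its 5′ end within 2 kb stood at percentile 91.4 instead of 99.0. TTCNNGAA was in 2 of the bound members when the whole promoter window was read. No paired analysis was possible because there was only 1 group. Depth is unknown and untagged worms were not analysed here, so how low a signal could be called is unknown too. A promoter without a record is not shown to be unbound.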
